A study of Equus caballus with 4 samples.

Results

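Integrins and laminins were followed in equine satellite cells, the stem cells of skeletal muscle, after exposure to gamma-oryzanol (GO), a mixture of ferulic acid esters of sterols and triterpene alcohols from rice bran oil. The members are the genes whose symbol in the array files is that of an integrin alpha or beta subunit (*ITGA*, *ITGB*) or of a laminin alpha, beta or gamma chain (*LAMA*, *LAMB*, *LAMC*). There were 34 such genes among 13350 named genes, 25 integrins and 9 laminins, read by 84 of 43603 probes. A further 4 chains, *ITGA7*, *LAMA5*, *LAMB1* and *LAMC1*, are named in the files only by the description of their 6 probes and carry a transcript identifier in place of a symbol. They lie outside that rule, so their values are given beside the members and enter no count of members unless the sentence says so.

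The cells came from the semitendinosus muscle of colts under a year old, and the study kept the culture that scored best for viability and fusion. In both groups they were studied on day 3 in low-serum differentiation medium. The GO group had received 125 nM GO for 24 h, and the control group the same vehicle alone, 0.04 μl/ml of DMSO. Each of 4 arrays on 1 slide held Cy5-labeled RNA of the GO group against Cy3-labeled RNA of the control group, and the labels call the arrays biological replicates. The titles number the control RNA 1 to 4 with the arrays, whereas the descriptions of all 4 samples name control replicate 1, and which holds was not settled. Were it 1 control RNA on all arrays, the p-values would leave out the spread of the control. The sources used here do not say whether the arrays stand for different horses or for separate cultures, so the p-values below measure the spread between these 4 arrays, which may be technical. The dyes were never swapped, so dye and GO effects cannot be told apart.

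Integrins are receptors of the cell surface built from an alpha and a beta chain. They bind the extracellular matrix outside the cell and link it to the actin cytoskeleton inside. Laminins are cross-shaped proteins of an alpha, a beta and a gamma chain that polymerize into the basement membrane. In skeletal muscle the laminin that holds the alpha chain *LAMA2* lines every fiber, and the integrin of *ITGA7* and *ITGB1* is its main integrin receptor there. Satellite cells lie between this sheet and the fiber.

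The share of spots well above background was 63.5 to 68.9% for control and 57.4 to 67% for GO. No array had a saturated spot, and precision is limited by having 4 arrays. Of the marker genes of muscle cells, 9 of 13 had a probe under their symbol and all 9 were well above background on every array. Probes without a symbol were not searched for this or the other lists of genes. The summed signal of these 9 was 279382 to 380248 for control and 181239 to 264739 for GO, without overlap. Most of the sum came from *ACTC1*, *MYH3* and *ACTA1* (147439, 73264 and 51857 in the control channel of array 1). Taken singly, 5 of the 9 had signals that did not overlap between the groups (background 7.53%), and *ACTC1* was not among them. Of the fibroblast markers 7 of 8 had a probe under their symbol, and all 7 were well above background. Their summed signals, mostly from *COL1A2* and *COL3A1*, overlapped between the groups (282028 to 446742 in the control channel, 292838 to 404740 in the GO channel). The endothelial markers *PECAM1*, *CDH5*, *VWF*, *KDR*, *TEK* and *ESAM* were above background on 0 arrays. In RNA from whole cultures, fewer cells of a type and less RNA per cell cannot be told apart.

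A value below is the log2 ratio of GO over control within an array, so that -1 stands for halving. A gene is read by its brightest probe, and 23 of the 34 members were tested because that probe was well above background in a channel on all 4 arrays. All 23 met this in the control channel and 20 met it in the GO channel as well, the other 3 being *ITGA3* and *ITGB3* (3 arrays in the GO channel) and *LAMA1* (2 arrays). A gene was counted as changed when limma gave an adjusted p of at most 0.05 and the fold change was at least 1.3, that is 0.38 on the log2 scale. Of the 23 members, 4 passed both thresholds (17.4%), beside 788 of the 9058 named genes tested (8.7%). *ITGA9* and *ITGA11* were higher in GO-treated cells (background of higher genes 3.33%), and *ITGA4* and *ITGA6* were lower (background of lower genes 5.37%). All 4 encode alpha subunits of integrins. The adjusted p alone was passed by 7 members (background 17.3%), and 13 of the 23 had the same sign on all 4 arrays (background 42.3%). The signals of the groups did not overlap in 4 of the 23, *ITGA4*, *ITGA6* and *ITGA9* among them (background 7.53%). The median log2 ratio of the tested members was -0.07, beside 0.0030 for all named genes tested. Over the 19 tested members that did not pass both thresholds, the log2 ratios ran from -0.38 for *LAMA1* to 0.28 for *ITGB3*.

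**Figure D1:**
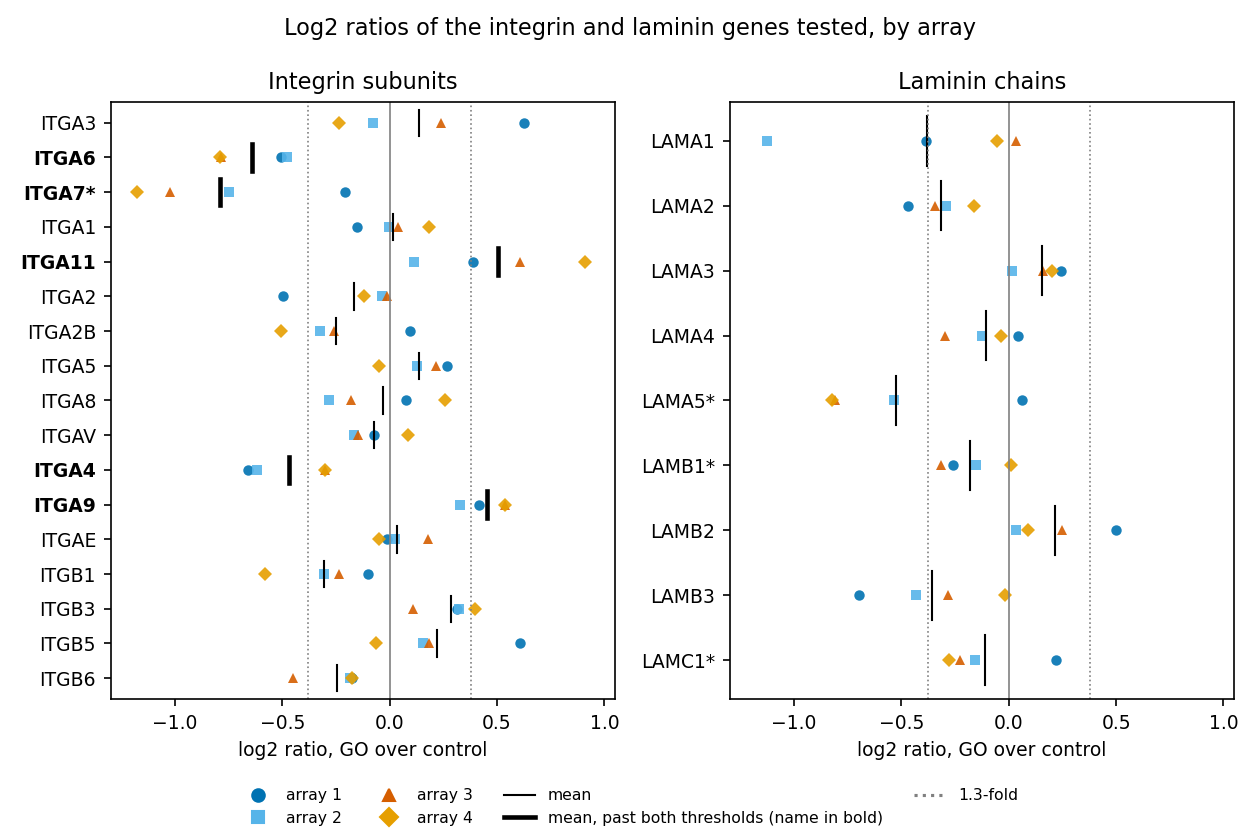
Log2 ratio of GO over control (x axis) for the integrin subunits and laminin chains tested (y axis), except 1 member whose result is not reported, 1 point per array. Black bars are means over 4 arrays, thick bars and bold names mark genes past both thresholds, dotted lines mark a fold change of 1.3, and an asterisk marks the 4 chains named by description. All 4 points of *ITGA6*, *ITGA4* and *ITGA7* lie below 0 and all 4 of *ITGA9* and *ITGA11* above it.

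The integrin alpha chains that bind laminin are *ITGA3*, *ITGA6* and *ITGA7*, the last named by description. With *ITGA7* counted, 2 of the 3 passed both thresholds and were lower in GO-treated cells (background of lower genes 5.37%). Their probes are shown because *ITGA6* and *ITGA7* had the lowest log2 ratios of all integrins tested and each was read by 1 probe alone. Both genes are known to give transcripts that encode different cytoplasmic tails, and a probe of 60 bases reads only the transcripts that hold its sequence. Probe positions refer to EquCab1, as the files give them, with chrUn for sequence not placed on a chromosome, and sequences are written 5′ to 3′ along the strand named.
ITGA7 (chrUn:195010919-195010978, minus strand): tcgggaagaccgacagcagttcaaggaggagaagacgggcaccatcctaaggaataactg
ITGA6 (chr18:40085027-40085086, plus strand): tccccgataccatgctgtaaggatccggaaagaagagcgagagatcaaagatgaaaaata

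*ITGA7*, the alpha chain of the laminin receptor of muscle fibers, had a processed signal of 3068, 4818, 3498 and 3497 in the control channel of arrays 1 to 4. In the GO channel of the same arrays it was 2659, 2869, 1719 and 1546. The 4 control signals were all above the 4 GO signals, and array 1 had the closest pair. The log2 ratios were -0.21, -0.75, -1.02 and -1.18, with a mean of -0.79 ± 0.43 (SD, n = 4) and a 95% interval of -1.16 to -0.42 (adjusted p from limma 0.0199). Of the 9 muscle markers, 6 passed both thresholds and fell (background of lower genes 5.37%). The median log2 ratio over the 9 was -0.26, -0.66, -0.63 and -0.64 on arrays 1 to 4. In that median array 1 was the closest to 0 too. Only in *MYH8* (-1.63) and *MYF5* (-0.97) was array 1 the furthest from 0. The part of the shift of these markers in the ratio of *ITGA7* was not tested. Without replicate 2 the adjusted p of *ITGA7* was 0.0706 at a log2 ratio of -0.80, and without replicate 3 it was 0.0714 at -0.71.

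*ITGA6*, which forms laminin receptors with *ITGB1* or *ITGB4* and is used as a surface marker of several kinds of stem cells, had control signals of 1374, 1087, 1514 and 1422. Its GO signals were 967, 780, 877 and 822, all below the lowest control signal. The log2 ratios were -0.51, -0.48, -0.79 and -0.79, with a mean of -0.64 ± 0.17 (SD, n = 4), a 95% interval of -0.83 to -0.45 and an adjusted p of 0.00565. The call held without any single replicate. *ITGA3*, a laminin receptor chain best known from epithelia, had log2 ratios of 0.62, -0.08, 0.24 and -0.24, which fell on both sides of 0 (mean 0.14 ± 0.38, SD, adjusted p 0.518).

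**Figure D2:**
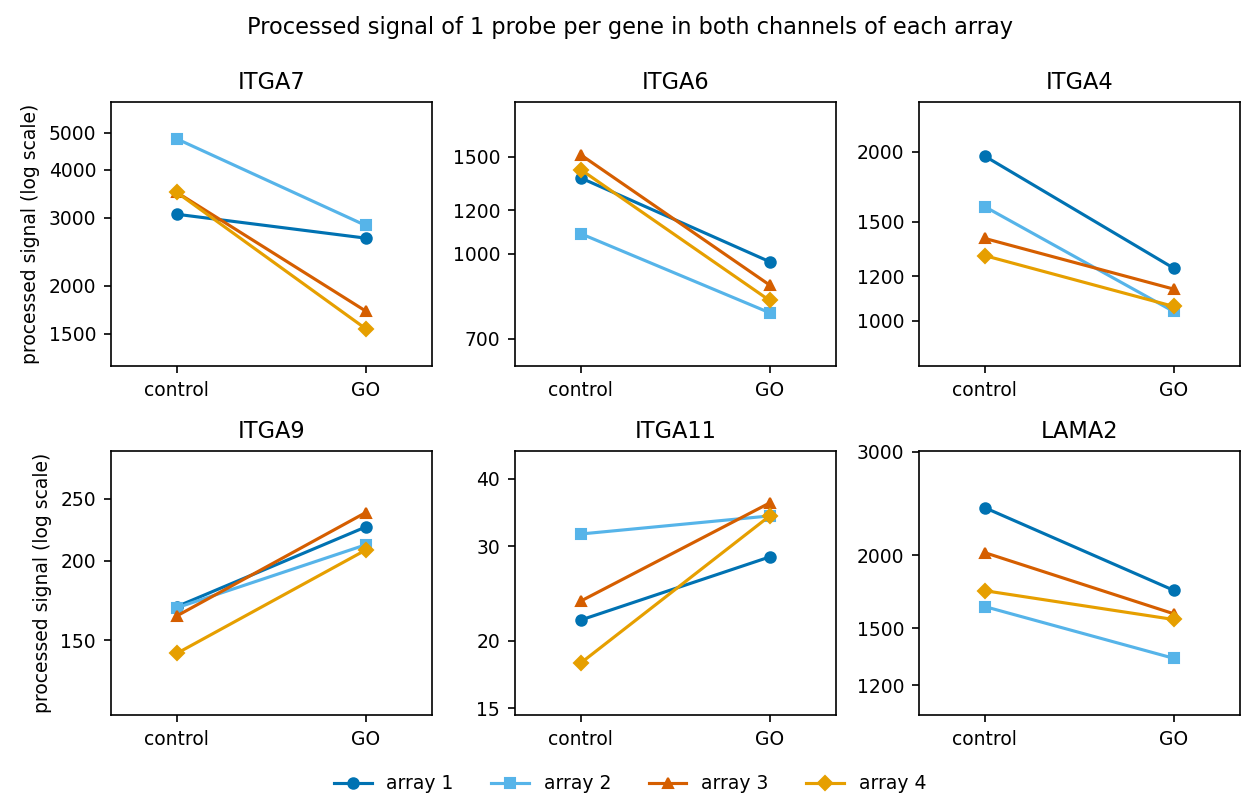
Processed signal (y axis, log scale, a separate scale for each gene) of the brightest probe of 6 genes in the control and the GO channel, with a line joining the channels of 1 array. The lines of *ITGA7*, *ITGA6*, *ITGA4* and *LAMA2* fall on all 4 arrays and those of *ITGA9* and *ITGA11* rise. The channels overlap for *ITGA11* and *LAMA2* only.

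*ITGA4* and *ITGA9* encode a pair of related alpha chains that bind fibronectin, tenascin, osteopontin or VCAM1 and, unlike other alpha chains, form a small family of their own. They moved in opposite directions. *ITGA4* had control signals of 1964, 1597, 1402 and 1307 and GO signals of 1241, 1039, 1139 and 1061, and no GO signal reached the lowest control signal. Its log2 ratios were -0.66, -0.62, -0.30 and -0.30 (mean -0.47 ± 0.20, SD, n = 4, 95% interval -0.67 to -0.27, adjusted p 0.0162). Arrays 1 and 2 lay further from 0 than arrays 3 and 4, which is the reverse of *ITGA6*. Without replicate 2 the adjusted p was 0.0739 at a log2 ratio of -0.42.

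*ITGA4* was read by 5 probes, of which 4 lie in 20-base steps and share up to 40 bases, so they are not independent. All 4 passed both thresholds, with log2 ratios from -0.47 to -0.41. The fifth probe lies 1874 bases upstream of them and had log2 ratios of -0.39, -0.14, -0.07 and -0.03 (mean -0.15, adjusted p 0.198). The difference between the places was not tested. The upstream probe is given whole and the brightest downstream probe by its first 30 bases, since the places gave different calls.
ITGA4 upstream (chr18:47828247-47828306, plus strand): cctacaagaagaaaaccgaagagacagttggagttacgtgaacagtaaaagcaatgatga
ITGA4 downstream (chr18:47830221-47830280, plus strand): ttgctttctcaaagatgatccctgaggaac

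*ITGA9* had control signals of 169, 169, 164 and 143 and GO signals of 226, 212, 238 and 208. The lowest GO signal was above the highest control signal. The log2 ratios were 0.42, 0.33, 0.54 and 0.54 (mean 0.46 ± 0.10, SD, n = 4, 95% interval 0.30 to 0.61, adjusted p 0.00756), the smallest spread among the 4 members past both thresholds. Of its 4 other probes, 2 were tested and gave 0.21 (adjusted p 0.156) and 0.25 (adjusted p 0.0554). The call held without any single replicate but was lost on the mean over the 3 tested probes, where the log2 ratio was 0.31 (adjusted p 0.0338).
ITGA9 (chr16:47392138-47392197, minus strand, first 30 bases): atcattcgcctgtcatccttgatctttgta

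The alpha chains that bind collagen are *ITGA1*, *ITGA2*, *ITGA10* and *ITGA11*. Of the 3 tested, 1 passed both thresholds and rose (background of higher genes 3.33%). *ITGA11*, a receptor for fibrillar collagen best known from fibroblasts, was a dim spot, with control signals of 21.9, 31.6, 23.7 and 18.2 and GO signals of 28.6, 34.1, 36.1 and 34.1. It was well above background in both channels on all 4 arrays. The channels overlapped, through the control signal of array 2. The log2 ratios were 0.39, 0.11, 0.61 and 0.91 (mean 0.50 ± 0.34, SD, n = 4, 95% interval 0.20 to 0.80, adjusted p 0.0390). The call was lost without replicate 1 (adjusted p 0.0780), replicate 3 (0.122) or replicate 4 (0.0759), and after normexp background correction and loess the log2 ratio was 0.15 (adjusted p 0.144).
ITGA11 (chr1:121802140-121805904, plus strand, 60 bases spread over 3765 bases of the genome): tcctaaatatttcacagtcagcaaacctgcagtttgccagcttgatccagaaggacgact
The 7 fibroblast markers tested had a median log2 ratio of 0.08. *PDGFRA*, a receptor of platelet-derived growth factor, was the 1 of 7 that passed both thresholds (background 8.7%), with 0.87. Its spot was dim, with control signals of 21.8 to 46.4. The other markers ran from -0.10 to 0.24. The part of fibroblasts in the ratio of *ITGA11* was not tested.

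*ITGA1* and *ITGA2* did not pass. The log2 ratio of *ITGA1* was 0.02 (95% interval -0.15 to 0.19) and that of *ITGA2* was -0.17 (-0.39 to 0.06). The 3 probes of *ITGA1* gave values from -0.0040 to 0.14. *ITGA10*, a collagen receptor of cartilage, was above background on 0 arrays in either channel by its brightest probe, and was not tested.

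The alpha chains that recognize the RGD motif of fibronectin and vitronectin, or in *ITGA2B* of fibrinogen, were all tested, and 0 of 4 passed both thresholds by the brightest probe in limma or in a plain one-sample test, with 1 of 4 at an unadjusted p under 0.05 in limma (background 34.8%). *ITGAV*, which pairs with several beta chains, was read by 6 probes with log2 ratios from -0.12 to 0.04. Its brightest probe gave -0.07 with a 95% interval of -0.23 to 0.08. *ITGA5*, the classical fibronectin receptor chain, had 0.14 (adjusted p 0.209) by its brightest probe and 0.31 (adjusted p 0.0359) by its other probe. *ITGA2B*, the platelet receptor chain, had -0.25 (adjusted p 0.130).

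*ITGA8*, a receptor chain for nephronectin and fibronectin, gave different results by its pair of probes, which abut on the genome with 0 bases between them. The brightest had control signals of 59.0, 63.8, 53.8 and 39.9 and GO signals of 62.2, 52.4, 47.5 and 47.7, and its log2 ratios of 0.08, -0.28, -0.18 and 0.26 lay on both sides of 0 (mean -0.03 ± 0.25, SD, adjusted p 0.846). The dimmer probe had log2 ratios of -0.43, -0.39, -0.98 and -0.47 (mean -0.57, adjusted p 0.0186) and passed both thresholds. That probe was well above background on all 4 arrays in the control channel but on only 2 for GO. The difference between the probes was not tested. Both are shown because they are neighbors in the sequence that did not give 1 answer.
ITGA8 brightest (chr29:18548921-18550683, plus strand, 60 bases spread over 1763 bases of the genome): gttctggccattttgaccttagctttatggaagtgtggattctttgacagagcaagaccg
ITGA8 dimmer (chr29:18550684-18550743, plus strand): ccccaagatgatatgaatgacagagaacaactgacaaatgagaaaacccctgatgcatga

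The alpha chains of leukocyte integrins were at the edge of detection. *ITGAD*, *ITGAL* and *ITGAM* were above background on 0 arrays in either channel, and *ITGAX* on 1 array in the control channel and on 0 in the GO channel. *ITGAE*, which pairs with *ITGB7* on T cells of epithelia, was the exception, with signals from 1712 to 2203 over both channels. Its log2 ratio was 0.03 with a 95% interval of -0.12 to 0.19. Of the leukocyte markers *CD3E*, *CD2*, *CD4* and *TYROBP* were above background on 0 arrays, while 4 others were tested, *CD14*, *CD68* and *FCER1G* among them, and 0 of these 4 passed both thresholds.

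Of the 8 beta subunits 4 were tested, and 0 passed both thresholds by the brightest probe in limma or in the plain one-sample test, while 3 of the 4 had an unadjusted p under 0.05 in limma (background 34.8%). *ITGB1*, the common partner of *ITGA1* to *ITGA11* and of *ITGAV*, had control signals of 13213, 22598, 16988 and 21168 and GO signals of 12313, 18262, 14439 and 14151. Every array had the lower signal in the GO channel, while the ranges of the groups overlapped. The log2 ratios were -0.10, -0.31, -0.23 and -0.58 (mean -0.31 ± 0.20, SD, n = 4, 95% interval -0.51 to -0.10, adjusted p 0.0541). A second probe that shares 30 bases with it gave -0.31 (adjusted p 0.0475), short of the fold threshold. The other 3 probes lie 3834 or more bases upstream and gave -0.11, -0.07 and -0.10 (adjusted p 0.267, 0.460 and 0.283). After normexp and centring without lowess the brightest probe gave 0.011 (adjusted p 0.987). In that setting 69 named genes were called higher and 6 lower, beside 302 and 486 as reported. After normexp and loess the probe gave -0.35 (adjusted p 0.0169), and with array weights -0.33 (adjusted p 0.0275), both short of the fold threshold. Its adjusted p was 0.168 without a filter on dim probes and 0.187 in the plain test. As with *ITGA4*, the downstream probes lay further below 0 than the upstream ones, and the difference was not tested. Capitals mark the bases that the pair of downstream probes share.
ITGB1 brightest (chr29:3971893-3971952, plus strand): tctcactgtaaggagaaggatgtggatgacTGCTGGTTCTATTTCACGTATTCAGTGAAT
ITGB1 neighbor (chr29:3971923-3971982, plus strand): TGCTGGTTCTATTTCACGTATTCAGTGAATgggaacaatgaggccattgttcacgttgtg

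*ITGB3*, the partner of *ITGAV* and *ITGA2B*, had log2 ratios of 0.31, 0.32, 0.11 and 0.40 and passed the adjusted p (0.0344) but not the fold (mean 0.28). This probe was well above background on 3 arrays in the GO channel, and it gave 0.072 (adjusted p 0.333) after normexp and loess and 0.044 (adjusted p 0.882) after normexp without lowess. Its 5 probes are shifted by single bases, and the other 2 that were tested gave 0.08 and 0.10 (adjusted p 0.575 and 0.682). *ITGB5* had 0.22 (adjusted p 0.195), with 0.61 on array 1, and 0.091 without replicate 1. *ITGB6*, best known from epithelia, had -0.25 (adjusted p 0.0553) and -0.30 (adjusted p 0.0536) by the pair of its probes that were well above background in both channels. Its remaining probe gave -0.90 (adjusted p 0.0671), and the GO channel of that probe did not rise well above background on any array. *ITGB2*, the beta chain of leukocytes, *ITGB4*, *ITGB7* and *ITGB8* were not tested.

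Of the 9 laminin members 7 were tested and 0 passed both thresholds in limma or in a plain one-sample test. The adjusted p of limma alone was passed by 2 (background 17.3%). An unadjusted p under 0.05 was reached by 5 of the 7 in limma (background 34.8%) and by 2 of the 7 in the plain test (background 26.3%). The median log2 ratio over the 7 was -0.32, beside 0.0030 over all named genes tested. It was -0.21 over the 6 chains well above background in both channels on all arrays, which leaves out *LAMA1*. It was -0.14 without replicate 2, -0.14 after normexp and loess and -0.10 after normexp without lowess, and with *LAMA5*, *LAMB1* and *LAMC1* added it was -0.25 over 10 chains. *LAMA2*, the alpha chain of the laminin around muscle fibers, had control signals of 2409, 1634, 2019 and 1739 and GO signals of 1742, 1334, 1589 and 1553. The GO signal was the lower on every array, but the ranges of the groups overlapped. Its log2 ratios were -0.47, -0.29, -0.35 and -0.16 (mean -0.32 ± 0.13, SD, n = 4, 95% interval -0.48 to -0.15, adjusted p 0.0263), a fold change of 1.25 and thus below the 1.3 required. Its second probe lies 232754 bases upstream in the genome and gave -0.18, -0.22, -0.82 and -0.04 (mean -0.31, adjusted p 0.134), with array 3 apart from the other arrays. Both probes are shown, the brightest by its first 30 bases.
LAMA2 brightest (chr10:70788394-70788453, plus strand): gatggtgctaattcagatcccagactgaag
LAMA2 upstream (chr10:70555580-70555639, plus strand): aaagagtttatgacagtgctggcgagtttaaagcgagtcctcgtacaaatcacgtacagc

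The chains that join *LAMA2* in the laminin of muscle are *LAMB1* or *LAMB2* and *LAMC1*. *LAMC1*, named by description, had control signals of 5365, 6300, 6036 and 5655 and GO signals of 6245, 5645, 5149 and 4665. Its log2 ratios of 0.22, -0.16, -0.23 and -0.28 changed sign between array 1 and the others (mean -0.11 ± 0.23, SD, n = 4, adjusted p 0.433), and its 3 overlapping probes gave -0.14 to -0.08. *LAMB1*, also named by description, had -0.18 (95% interval -0.35 to -0.0085, adjusted p 0.126). *LAMB2*, the beta chain found at the neuromuscular synapse, had 0.22 with a positive ratio on all 4 arrays (95% interval 0.0066 to 0.43, adjusted p 0.131), and 0.12 without replicate 1.

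Among the chains of other basement membranes, *LAMB3*, a beta chain of the laminin of skin, had -0.36 (adjusted p 0.0667), with -0.70 on array 1 and -0.02 on array 4. *LAMA3*, the alpha chain of the same laminin, went the other way. Its brightest probe gave 0.15 (adjusted p 0.133), and its 3 other probes gave 0.26 to 0.29 (adjusted p 0.0275 to 0.0445). These are a pair with the same 60 bases and another that shares 40 of them, so they are not independent. *LAMA1*, the alpha chain of early embryonic basement membranes, had log2 ratios of -0.39, -1.13, 0.03 and -0.06 (mean -0.38 ± 0.53, SD, n = 4, adjusted p 0.189), and its GO channel was well above background on only 2 arrays. Without replicate 2 the mean was -0.14, and after normexp and loess it was -0.09.

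*LAMA5*, named by description, followed *ITGA7* in its order over the arrays. It had control signals of 368, 619, 373 and 365 and GO signals of 383, 428, 212 and 206. Array 1 had a log2 ratio of 0.06 and arrays 2 to 4 had -0.53, -0.81 and -0.82 (mean -0.53 ± 0.41, SD, n = 4, adjusted p 0.0546). Without replicate 1 the mean was -0.72 and the adjusted p 0.0139. *LAMA4*, the chain of vessels and nerves, had -0.10 (95% interval -0.28 to 0.07) and its second probe -0.11. *LAMB4* and *LAMC3* were not tested.

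Several probes of a gene read it more than once, though not always independently. Of the 84 member probes 54 were tested and 8 passed both thresholds, beside 8.94% of all 26832 probes tested (3.33% higher and 5.61% lower). Of these 8, 4 belong to *ITGA4*, and *ITGA6*, *ITGA8*, *ITGA9* and *ITGA11* had 1 each. In 11 of the 14 members with more than 1 tested probe, all tested probes had the same sign. A background share for this count is not given. Part of the agreement is built in, because probes of a gene can share bases. The tested probes of *ITGB3* share 56 to 59 bases, a pair of *LAMA3* shares 60, and those of *ITGA4* and *ITGB6* share up to 40. Some tested probes were well above background on all arrays only in the control channel. The exceptions to the same sign were *ITGA1*, *ITGAE* and *ITGAV*, with values between -0.12 and 0.14. The median range between the lowest and the highest probe of a gene was 0.16 on the log2 scale. The ranges of *ITGB6* (0.65) and *ITGA8* (0.53) were the widest.

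**Figure D3:**
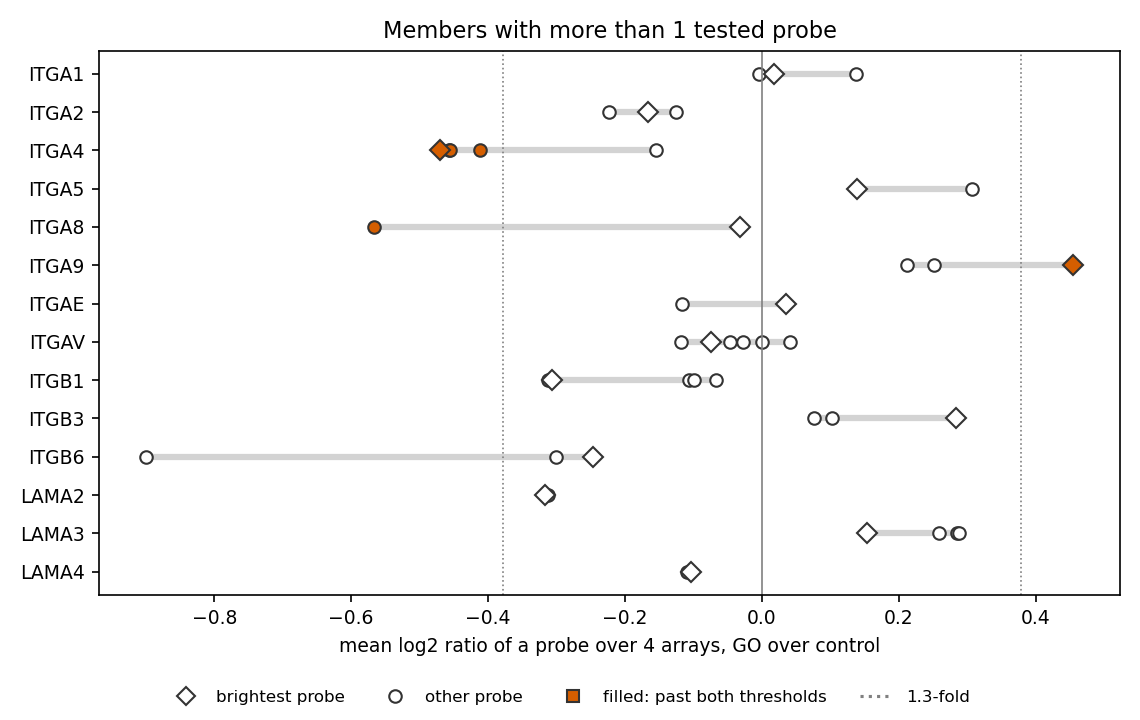
Mean log2 ratio over 4 arrays (x axis) of each tested probe of the 14 members with more than 1 tested probe (y axis). Diamonds are the brightest probe, circles the others, filled symbols passed both thresholds, dotted lines mark a fold change of 1.3, and the lowest *ITGB6* probe was too dim in GO-treated cells. The 4 filled probes of *ITGA4* sit together near -0.45 with the fifth apart at -0.15, while the single filled probe of *ITGA8* is not its brightest.

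Inside the cell integrins are joined to actin by adaptor proteins, and outside they meet ligands of the matrix. Of 30 listed integrin-associated genes 23 had a probe under their symbol and 20 were tested. *LIMS2*, an adaptor that binds the integrin-linked kinase, rose, and *ITGB1BP2*, the muscle protein melusin that binds the tail of *ITGB1*, fell (2 of 20, 10%, beside 8.7% of named genes). The log2 ratios of *LIMS2* were 0.66, 0.28, 0.49 and 0.58 (mean 0.51, adjusted p 0.00953). Those of *ITGB1BP2* were -0.67, -0.71, -0.59 and -0.75 (mean -0.68, adjusted p 0.00239), a narrower spread than that of any integrin past both thresholds. The median over the 20 was 0.19 beside 0.0030 for all named genes tested, and 13 of the 20 had the same sign on all 4 arrays (background 42.3%). *ILK*, the kinase itself, had 0.26 (adjusted p 0.0689), *FERMT2*, a kindlin that activates integrins, had 0.18 (adjusted p 0.0646), and *VCL*, vinculin, had 0.02 (adjusted p 0.809).

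Of 25 listed ligand and basement membrane genes 18 had a probe under their symbol and 16 were tested. *SPP1*, osteopontin, a ligand of *ITGA4*, *ITGA9* and *ITGAV*, fell, and *HSPG2*, perlecan, a proteoglycan of the basement membrane, rose (2 of 16, 12.5%, beside 8.7%). *SPP1* had log2 ratios of -1.50, -1.13, -1.34 and -1.17 (mean -1.28, adjusted p 0.00102), a mean further from 0 than that of any member tested. *HSPG2* had 0.75, 0.11, 0.32 and 0.56 (mean 0.43, adjusted p 0.0380). Its call was lost without replicate 1 (adjusted p 0.0823), replicate 3 (0.0890) or replicate 4 (0.0944). The adjusted p alone was passed by 7 of the 16 (background 17.3%), the other 5 being *DAG1*, the laminin receptor dystroglycan (-0.36), *FN1*, fibronectin (-0.26), *CTGF* (-0.21), *FBLN1* (0.27) and *EDIL3* (0.36). *NID1*, which bridges laminin to collagen, had -0.15 (adjusted p 0.272).

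**Figure D4:**
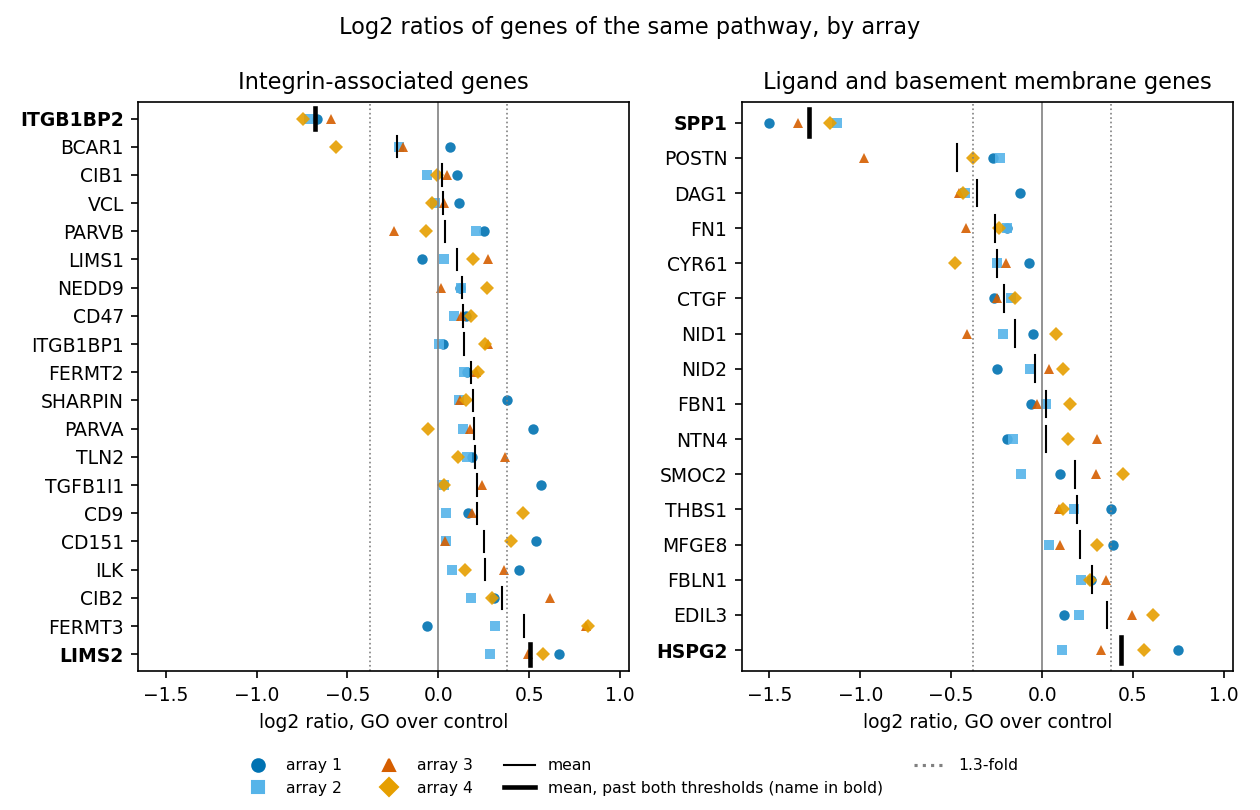
Log2 ratio of GO over control (x axis) of the integrin-associated genes (left) and the ligand and basement membrane genes (right) that were tested, 1 point per array, ordered by their mean. Black bars are means over 4 arrays, thick bars and bold names mark genes past both thresholds, and dotted lines mark a fold change of 1.3. *ITGB1BP2* and *SPP1* lie apart at the low end, and most integrin-associated genes have means between 0 and the dotted line on the right.

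The calls of the integrins depended on the test and the processing. *ITGA6* kept its call under 9 of 13 alternatives, *ITGA4* and *ITGA9* under 8, *ITGA7* under 7 and *ITGA11* under 4, and all 5 kept their sign under all 13. The changes of filter and the plain test use the same ratios, so no sign could change there. Centring on the median of each array moved the ratios little. A plain one-sample test per probe, without the variance shared across probes by limma, left 0 members past both thresholds beside 38 of 9058 named genes, with adjusted p from 0.0722 for *ITGA9* to 0.190 for *ITGA11*. An unadjusted p under 0.05 was reached by 7 of 23 members in that test (30.4%, background 26.3%) and by 13 of 23 in limma (56.5%, background 34.8%). *LAMA2* kept its negative sign and stayed outside the call under all 13.

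**Figure D5:**
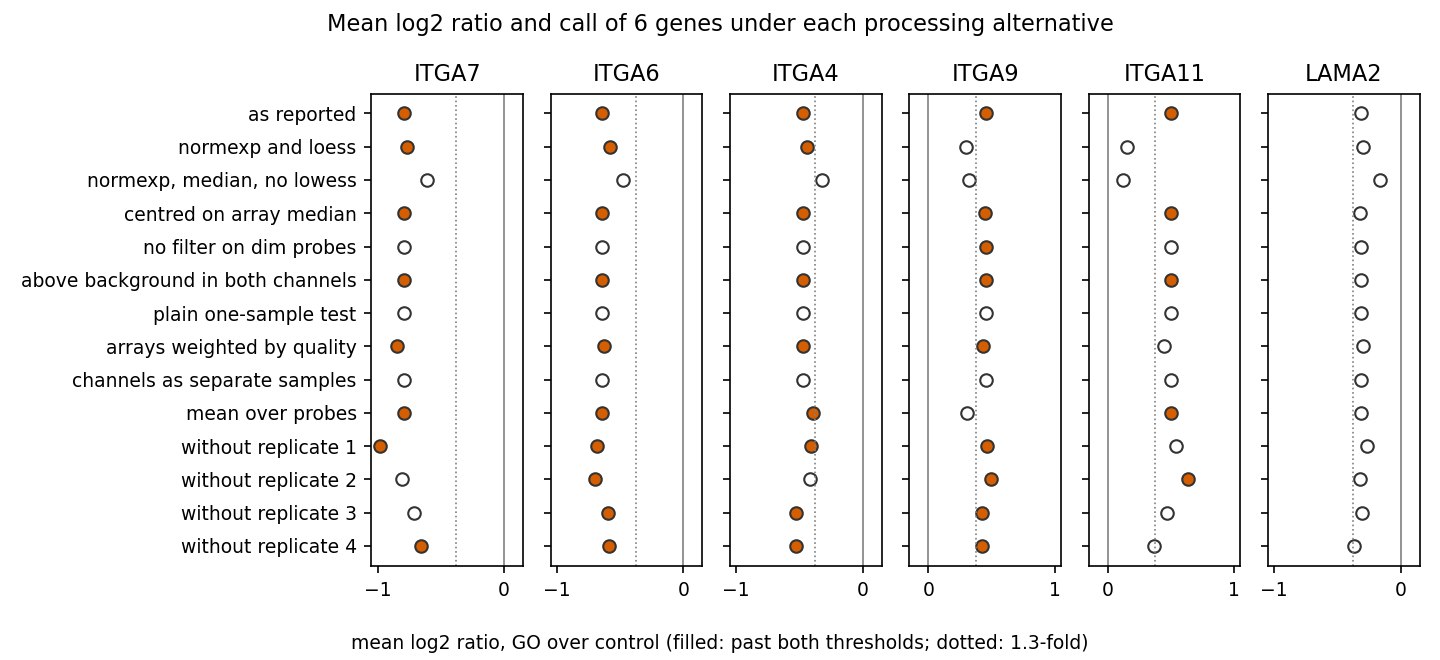
Mean log2 ratio (x axis) of 6 genes as reported and under 13 alternatives (y axis), with symbols filled where both thresholds were passed and dotted lines at a fold change of 1.3. No symbol crosses 0, while filled symbols turn open for each of the first 5 genes and *LAMA2* has none filled.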

How the data were processed

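Gene expression was measured on 4 two-color arrays with GO-treated cells in Cy5 and control cells in Cy3. The authors processed the scans with Feature Extraction (version 10.10.1.1 in the file headers). Per the file headers, the intensity columns used here are the raw mean signal, the local background and the processed signal of each channel, the last corrected for background, spatial trend and dye (linear and lowess). The deposited log10 ratios are of processed Cy5 over Cy3, and the authors' table of the series held the same log10 ratios in 180880 of 180880 values. Ratios were converted to log2. Control and outlier spots were left out, and replicate spots (50 probes) were averaged. The 26832 of 43603 probes well above background in a channel on all 4 arrays were tested against 0, two-sided, by limma 3.58.1 under R 4.3.3, with Benjamini-Hochberg adjustment over all of them. The thresholds of the methods were used (adjusted p up to 0.05, fold change from 1.3). The log2 ratios of any pair of arrays had a correlation across probes of 0.45 to 0.68. The ratio within an array pairs its channels. The fit was tested on simulated data with few changed probes, where it found the larger planted changes and missed the smallest, which were of the size of most changes reported here. In the real data 2399 probes passed both thresholds, so the simulation does not give the share of such changes found here.

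The members and lists were chosen with earlier results of these data known. Every member is in the counts, and the result of 1 member is not reported here by name. Array values are given for members past both thresholds by any probe and for *ITGA7*, *LAMA2*, *ITGB1* and *LAMC1*. *LAMA5* and others were added after their values were seen. Of the associated and ligand genes, those past both thresholds are named by rule and the rest after their values were seen. Probe positions and sequences are those of the files, on EquCab1, whose genome and exon annotation were not used here. The alternatives were normexp (offset 50) with loess or with the median alone, centring on the median, no filter and a filter on both channels, a plain one-sample test, array weights, channels as separate samples, the mean over probes, and leaving out each replicate. Figures were drawn with matplotlib.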

Additional observations from a re-analysis of the deposited data

Results flagged for a closer look

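The genes looked at were the 27 members with no ratio of exactly 0, the 4 named by description and the 4 associated or ligand genes past both thresholds. In 3 of these 35 genes, 1 array lay apart from the other 3 by Dixon's criterion, which chance alone meets in about 1 of 20 groups. *ITGB2*, the beta chain of leukocyte integrins, had a log2 ratio of 5.34 on array 3, where its raw GO signal was 194 against a local background of 231. On arrays 1, 2 and 4 that local background was 44, 47 and 45. The gene was too dim to be tested, and the part of this background in the ratio was not tested. *ITGB4*, also not tested, had -1.25 on array 4, with a processed signal of 6.9 in the GO channel and 16.5 in the control channel. *ITGB6* had -0.45 on array 3, beside -0.19 to -0.17 on the others.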

How the results depend on the processing

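Of the integrin and laminin genes, 2 were higher and 2 lower as reported. After normexp and loess 0 were higher, and after normexp and centring on the median without lowess 0 were higher and 0 lower. Without a filter on dim probes 1 was higher and 0 lower. The plain one-sample test gave 0 and 0, array weights gave 1 higher and 3 lower, and the mean over the probes of a gene gave 1 higher and 3 lower, with *ITGB6* gained (-0.48, adjusted p 0.0364). That mean takes in the *ITGB6* probe of -0.90, whose GO channel was not well above background on any array. With no replicate block, the channels being tested as separate samples without the pairing by array, 0 were higher and 0 lower, beside 105 of 9058 named genes. Leaving out a replicate gave 1 to 2 higher and 1 to 4 lower. *ITGA11* was the call lost without replicates 1, 3 and 4 and *ITGA4* without replicate 2, and *LAMB3* was gained without replicate 4 (-0.47).

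Of the integrin-associated and ligand genes, 2 were higher and 2 lower as reported. The count of higher genes was 0 after normexp and loess, after normexp and the median without lowess, without a filter, with the plain test and with no replicate block. The count of lower genes was 1 after normexp and the median without lowess and 1 with the plain test, and 4 with array weights. Leaving out a replicate gave 1 to 3 higher and 2 to 3 lower. *EDIL3*, *FERMT3* and *DAG1* were gained and *HSPG2* was lost without replicate 1, and *HSPG2* was lost without replicates 3 and 4.

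Sign changes arose only in genes not past both thresholds. They were *ITGA1* (-0.016), *ITGA3* (-0.00059) and *ITGA8* (0.00053) after normexp and loess. Without lowess they were *ITGA3* (-0.015), *ITGB1* (0.011), *LAMA4* (0.16), *LAMB1* (0.27) and *LAMC1* (0.076), and on the mean over probes *ITGAE* (-0.041). Leaving out a replicate gave *ITGA1* -0.039 to 0.074, *ITGA3* -0.024 to 0.26, *ITGA8* -0.13 to 0.052 and *ITGAE* -0.013 to 0.063. The causes were not tested. Named genes called numbered 788 as reported and 38 to 812 under the alternatives, and 6 of the 34 members were above background in no channel of any array.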
